A study of Caenorhabditis elegans with 2 samples.

Results

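The genes described here are named for proteins of the large subunit of the cytosolic ribosome in the nematode Caenorhabditis elegans. They were chosen by name alone, as the protein-coding genes whose Ensembl name is rpl followed by a number, and 47 of the 19973 protein-coding genes on the 6 nuclear chromosomes met that rule. The rule takes in rpl-24.2, which RefSeq names rsl-24D1, after a relative of the ribosomal protein. It is counted throughout as a large-subunit gene by its Ensembl name. Binding of SUP-37, a zinc-finger protein first found through mutations that restore viability to pha-1 mutants, was mapped at the 47 genes by chromatin immunoprecipitation and sequencing (ChIP-seq). The series held 1 group of 2 biological replicates and no comparison group. Both were whole larvae of strain OP611, which is mutant for unc-119 (allele tm4063) and carries the transgene wgIs611, an integrated construct in which sup-37 is joined to TY1, EGFP and 3xFLAG tags together with a rescuing copy of unc-119. The larvae were a mixed-sex population in the first larval stage (L1), starved after bleaching, with a stated age of 6 hours. The description says that GFP was precipitated, but the antibody label reads sup-37, and the sources do not say whether the untagged protein could also have been precipitated. The promoter that drives the transgene is not given in the sources used here, and because whole larvae were used, a peak present in a few cells cannot be told apart from a weaker one present in many.

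Each ribosome has a small subunit, which decodes the message, and a large subunit, which forms peptide bonds and passes the growing protein through an exit tunnel. The large subunit is built in the nucleolus from ribosomal RNA and many different proteins, nearly all needed in equal amounts, and their supply is tied to growth and to food. Starved L1 larvae are arrested in development and resume growth when fed. The roles given below are those of the yeast and mammalian counterparts.

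The deposited data were 4 lists of regions on build ce11 (WBcel235), 1 for each replicate and 1 for their pool, each of 30000 regions that include background, and a shorter list of 924 peaks thresholded by the authors on the irreproducible discovery rate (IDR), a measure of how alike peaks rank across replicates. Each region carries a signal, the authors' own measure of its strength, and a summit, its point of highest signal. Signals were used only to rank regions within a list, where rank 1 is the strongest. The 924 IDR peaks are the 924 strongest pooled regions, so the ranks in those lists are the same. A gene is called bound here when an IDR summit lay between 1000 bp upstream and 200 bp downstream of its annotated 5′ end. Distances below are from that 5′ end to the summit, and negative distances are upstream. The lists give no read counts, so depth is unknown, and with no control samples no test between groups was possible. Counts of genes are set beside the same count over all protein-coding genes.

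SUP-37 bound 14 of the 47 large-subunit genes, or 29.8% (exact 95% interval 17.3 to 44.9%, counting error only), against 3.44% of all protein-coding genes (687 of 19973). In order of strength they were rpl-3, rpl-20, rpl-15, rpl-35, rpl-12, rpl-7A, rpl-11.2, rpl-24.2, rpl-29, rpl-22, rpl-43, rpl-38, rpl-25.2 and rpl-39. The first 4 were among the 25 strongest peaks of the genome. Only 27 of all 687 bound genes (3.93%) had a summit of that rank. The remaining 33 genes had no IDR summit, and 4 of them had no region of any kind in the window in any list.

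The DNA under the 4 strongest summits is shown because those windows share letters that the weaker ones mostly lack. Each line gives the summit base of the IDR peak with 50 bases on either side, read 5′ to 3′ in the direction of the gene, from the RefSeq copy of WBcel235. No base of these lies in an annotated exon. Capitals mark 4 words, all picked after these windows had been read. The first is AACACGC, which reads GCGTGTT on the other strand. The next is AAGTGTA, which reads TACACTT there. ACCGTA reads TACGGT on the other strand. ACACTCG reads CGAGTGT there.
rpl-3 (chrIII:3867515-3867615, plus strand): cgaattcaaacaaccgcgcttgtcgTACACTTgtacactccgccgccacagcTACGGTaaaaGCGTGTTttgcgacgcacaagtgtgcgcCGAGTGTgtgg
rpl-20 (chrIV:4750016-4750116, minus strand): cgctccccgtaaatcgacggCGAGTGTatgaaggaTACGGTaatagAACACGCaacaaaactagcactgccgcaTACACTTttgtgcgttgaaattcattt
rpl-15 (chrIV:654885-654985, minus strand): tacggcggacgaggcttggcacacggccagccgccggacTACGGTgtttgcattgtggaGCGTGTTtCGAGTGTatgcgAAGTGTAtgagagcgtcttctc
rpl-35 (chrIII:7854634-7854734, plus strand): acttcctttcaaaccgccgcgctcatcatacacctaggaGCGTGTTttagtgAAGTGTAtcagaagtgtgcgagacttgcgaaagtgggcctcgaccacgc

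All 4 of these windows held AACACGC, with its middle base 15 bp downstream of the summit at rpl-3, 1 bp upstream at rpl-20, 12 bp downstream at rpl-15 and 8 bp upstream at rpl-35. None of the other 10 bound large-subunit windows held it. The word occurred in 8 of the 25 strongest IDR windows (32%), in 43 of all 924 (4.65%) and in 0.681% of all promoters in a window of the same length at the members' median distance. The 8 and the 43 include the 4 windows from which the word was taken. AAGTGTA was also present in all 4 and in 1 of the other 10. It was found in 1.95% of IDR windows and 1.74% of promoters. The 3 strongest windows held ACCGTA and ACACTCG as well, in an order and spacing that differed between the genes, and the rpl-35 window held neither. These words were chosen from the windows they describe, which are also counted among the IDR windows, so their counts carry no test.

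A second arrangement was seen at weaker peaks. The letters AGTGT, any 1 base, then ACCGTA occurred 52 times in the nuclear genome on either strand, and 9 of the 47 large-subunit genes (19.1%) had a copy in the 1000 bp upstream to 200 bp downstream of their 5′ end, against 7 of the 31 small-subunit genes (22.6%) and 56 of all 19973 genes (0.28%). Here 40 bases around the copy are shown for the 7 large-subunit genes whose sequence is printed, with the fixed letters of the word in capitals. The first 4 lines are bound genes and the last 3 are not.
rpl-11.2 (chrX:2242946-2242985, minus strand): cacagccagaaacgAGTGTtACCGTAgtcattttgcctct
rpl-29 (chrIV:13881967-13882006, plus strand): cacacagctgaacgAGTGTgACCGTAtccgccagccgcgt
rpl-22 (chrII:5055374-5055413, plus strand): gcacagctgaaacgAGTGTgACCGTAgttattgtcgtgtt
rpl-38 (chrV:15511808-15511847, plus strand): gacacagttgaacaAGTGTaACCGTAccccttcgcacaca
rpl-6 (chrIII:7208064-7208103, plus strand): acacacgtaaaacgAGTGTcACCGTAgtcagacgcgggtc
rpl-21 (chrIII:8130504-8130543, minus strand): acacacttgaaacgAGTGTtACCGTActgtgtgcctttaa
rpl-34 (chrIV:12268555-12268594, plus strand): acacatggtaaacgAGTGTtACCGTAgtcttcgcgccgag

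The word lay 24 bp downstream of the IDR summit at rpl-11.2, 33 bp at rpl-29, 28 bp at rpl-22 and 44 bp at rpl-38, in each case on the side of the gene. It stood 347, 239, 223 and 339 bp upstream of the 5′ ends of those genes. At the 5 unbound genes it stood at similar distances, 243 bp upstream at rpl-24.1, 364 bp at rpl-6, 296 bp at rpl-21, 421 bp at rpl-34 and 216 bp at rpl-1. It read in the direction of the gene in all of these except rpl-1. Of the unbound copies, the one at rpl-24.1 lay within 100 bp of the pooled region of rank 1611, and the one at rpl-1 within 100 bp of the pooled region of rank 28778. The copies at rpl-6, rpl-21 and rpl-34 had no pooled summit within 100 bp. In the genome as a whole 35 copies fell in a promoter window and 11 lay within 100 bp of an IDR summit, and 15 copies were in the window of an rpl or rps gene. A copy of the word was therefore found both with and without a peak, in 4 of 14 bound genes (28.6%) and 5 of 33 unbound genes (15.2%). The word was joined together from letters seen in the member windows, so its frequency in rpl genes is a description only.

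**Figure D1:**
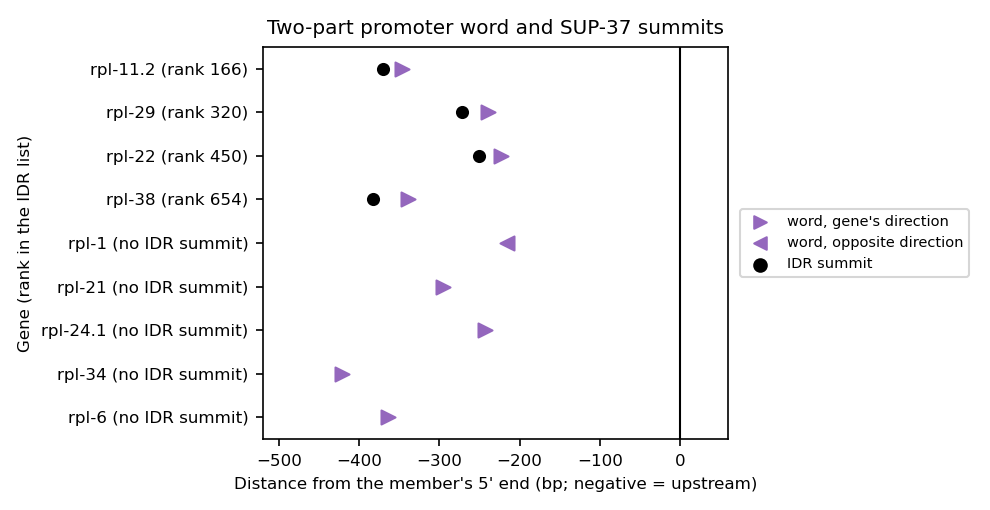
Position of the two-part word (triangles, pointing in the direction in which it reads) and of the IDR summit (black points) relative to the 5′ end of each of the 9 large-subunit genes that hold it, in bp. At the 4 bound genes the word lies 24 to 44 bp on the gene side of the summit, and at the 5 unbound genes it lies 216 to 421 bp upstream of the 5′ end with no IDR summit.

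By role, the peak of highest rank belonged to a gene of the catalytic core. RPL-3 reaches towards the peptidyl transferase centre, where peptide bonds are made. Its region (III:3867449-3867689) had a signal of 478 in replicate 1 and 456 in replicate 2, against 933 in the pooled list, and was the strongest region in all 3. The summit lay 289 bp upstream, in the 755 bp that separate rpl-3 from acs-19 on the same strand, and in no other gene's window. It was the 1 bound gene of 4 in the core and the peptidyl transferase centre, beside 3.44% of all genes. rpl-2, which RefSeq names rpl-8, had a pooled region of rank 21413. rpl-10 had no pooled region and a region of rank 1837 in replicate 1 only, and rpl-4 had none in any list. The core thus held both the strongest member and a gene with no region in the window in any list.

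The proteins that line or border the exit tunnel, through which the new chain leaves, gave 3 bound genes of 9, where the share over all protein-coding genes is 3.44%. RPL-35 sits at the tunnel's mouth. Its region (III:7854601-7854798) had signals of 328 in replicate 1 and 308 in replicate 2, ranks 17 and 8, with the summit 450 bp upstream and no other 5′ end near, since the next gene upstream, ZK652.8, is 11497 bp away. The region at rpl-39, a small protein of the tunnel wall (V:7776104-7776487), was less even in rank, with a signal of 45.7 and rank 5837 in replicate 1 and a signal of 67.7 and rank 582 in replicate 2. Its summit lay 217 bp upstream of rpl-39 and 282 bp upstream of rps-30, a small-subunit gene on the opposite strand that shares the promoter. The third, rpl-25.2 (rpl-23A.2 in RefSeq), is described with its paralogue below. Of the unbound tunnel genes, rpl-17 had pooled rank 3334, rpl-25.1 9003 and rpl-19 14309, and rpl-4, rpl-26 and rpl-31 had no pooled summit in the window. The 2 replicates gave similar ranks to the strong peak at rpl-35 and unlike ranks to the weak one at rpl-39. In position they differed little at rpl-39, with summits 23 bp apart.

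RPL-12 forms the base of the stalk where translation factors dock, and its gene had the fifth strongest member region (IV:13240598-13240765). The signals were 235.3 in replicate 1 and 244 in replicate 2, ranks 49 and 22. The summit lay 13 bp upstream of the 5′ end, the closest of all 14, and 380 bp upstream of lin-54 on the opposite strand. rpl-9, whose protein lies near the same factor-binding face, had a pooled region of rank 1702 at 247 bp upstream, shared with the divergent gene lpd-7, and was unbound. The genes of the stalk proteins themselves, rla-0, rla-1 and rla-2, were also unbound (0 of 3). The single gene for the protein of the L1 stalk, rpl-1 (rpl-10a in RefSeq), had a pooled region of rank 9587 and no region in replicate 2.

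The 5S particle, in which RPL-5 and RPL-11 hold the 5S ribosomal RNA, had 1 bound gene of 3, beside the same 3.44% over all genes. rpl-11.2 had a region (X:2242797-2243180) of signal 140 in replicate 1 and 138 in replicate 2, ranks 197 and 138, and a summit 371 bp upstream. Its replicate summits were the most widely separated of the 14, at 106 bp. rpl-5 had a pooled region of rank 1132 at 390 bp upstream, with ranks of 1714 in replicate 1 and 1026 in replicate 2. That is close to, but outside, the 924 regions of the IDR list. rpl-11.1 had ranks of 24191 and 23985 in the 2 replicates, near the end of both lists.

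The remaining bound genes, apart from rpl-24.2, which is described with its paralogue below, encode proteins spread over the body of the large subunit. The signals at rpl-20, which RefSeq names rpl-18A (IV:4749978-4750188), were 384 in replicate 1 and 363 in replicate 2, ranks 8 and 6. Its summit stood 288 bp upstream in a gap of 461 bp to the divergent gene Y17G9B.5, and was nearer to the 5′ end of that gene, at 174 bp. At rpl-15 (IV:654815-655031) the signals were 343 and 296 in replicates 1 and 2, ranks 12 and 10, with the summit 359 bp upstream of rpl-15 and 455 bp upstream of the divergent gene K11H12.8. At rpl-7A (IV:4390492-4390875) they were 147 and 128, ranks 173 and 169, with the summit 94 bp upstream and 160 bp upstream of the divergent gene set-21. These genes and rpl-12 and rpl-29 are 5 of the 7 large-subunit genes on chromosome IV, a share of 71.4%, against 3.38% of all protein-coding genes there. On the other chromosomes the members stood at 13.3% on I (2 of 15), 22.2% on II and on III (2 of 9 on each), 40% on V (2 of 5) and 50% on X (1 of 2). The numbers of members per chromosome are small, and differences between chromosomes were not tested. The shares over all protein-coding genes on I, II, III, V and X were 4.1%, 3.28%, 5.64%, 2.34% and 2.89%.

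The weaker members are given with their values in replicate 1 and then replicate 2. rpl-29 (IV:13881761-13882144) had signals of 114 and 76.1, ranks 306 and 452, and its summit lay 272 bp upstream of rpl-29 and 781 bp upstream of thoc-7. rpl-22 (II:5055173-5055556) had signals of 99.6 and 57.0, ranks 403 and 835, with a summit 251 bp upstream that was nearer to ify-1, at 186 bp. These 2 genes ranked within the first 924 in both replicates.

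rpl-43, named rpl-37A in RefSeq (II:14154367-14154750), had signals of 78.0 and 58.1 in replicates 1 and 2, ranks 708 and 796. Its summit was the farthest from a member, 735 bp upstream, and stood 186 bp upstream of the divergent gene Y48B6A.1. rpl-38 (V:15511591-15511974) had signals of 62.7 and 57.3, ranks 1414 and 820, and a summit 383 bp upstream. The peak at rpl-43 is the only one that a narrower window of 500 bp upstream to 100 bp downstream left out.

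**Figure D2:**
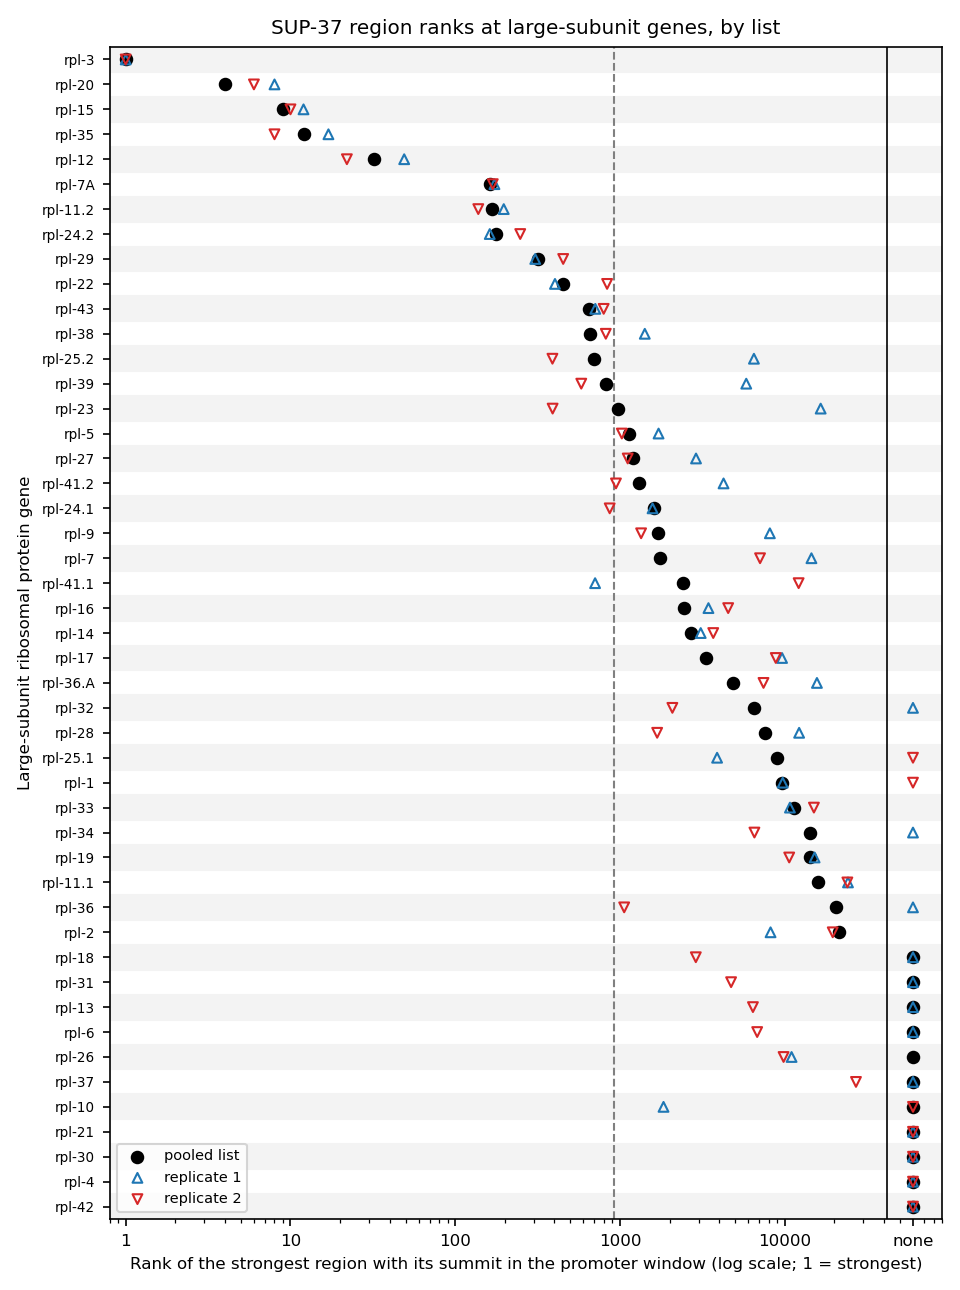
Rank of the strongest region with its summit in the promoter window of each of the 47 large-subunit genes (log scale, 1 = strongest) in the pooled list (black), replicate 1 (blue) and replicate 2 (red), with genes ordered by pooled rank and "none" where a list has no such region. The dashed line marks rank 924, the end of the IDR list. The 3 symbols of rpl-3 coincide at rank 1, those of rpl-25.2, rpl-39 and rpl-23 lie far apart, and rpl-4, rpl-21, rpl-30 and rpl-42 have none in any list.

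The IDR list was made from these replicates, so agreement between them at its peaks is partly fixed by how the peaks were chosen. Of the 14 bound genes, 14 had a replicate 2 region among the 924 strongest within 200 bp of the IDR summit and 11 had such a replicate 1 region. The same 11, or 78.6% of the bound members, ranked in the first 924 of both replicates, against 67.4% of all bound genes (463 of 687). Over all 47 genes, 11 (23.4%) had a summit of that rank in both replicates, against 2.33% of all genes. For single replicates the members stood at 12 (25.5%) in replicate 1, where the share over all genes was 2.94%, and 16 (34%) in replicate 2, where it was 3.57%. The 3 bound genes outside the first 924 of replicate 1 were rpl-38, rpl-25.2 and rpl-39. The summits of the replicates lay a median of 13 bp apart, and within 50 bp of each other at 13 of the 14 genes.

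Across the 32 large-subunit genes with a region in both replicate lists, the signals of the replicates had a Spearman correlation of 0.771. Each signal was that of the strongest region in the window, which was not always the same region in both replicates. At the unbound gene rpl-9, for instance, the summits stood 580 bp upstream in replicate 1 and 247 bp upstream in replicate 2. The bound gene rpl-25.2 was also paired across different regions. The correlation was 0.873 over the 14 bound genes and 0.315 over the 18 unbound ones, and the rank correlation over all 3797 genes with a region in both was 0.547. Genes are not independent replicates, and the 2 lists share the annotation and the DNA sequence of each promoter. Bound genes were selected by the IDR list, which takes the strongest pooled regions of these replicates, and the unbound genes span a narrower range of signals, so the difference between 0.873 and 0.315 follows in part from that selection.

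All 14 summits lay upstream of the member's 5′ end, at a median of 280 bp (quartiles 368 and 158.5 bp upstream, SD 178 bp, n = 14 genes). Over all 687 bound genes 95.1% of summits were upstream, with a median of 238 bp upstream and quartiles of 441 and 135.5 bp. The quartile ranges overlap. The closest summits were those of rpl-12, rpl-7A, rpl-24.2 and rpl-25.2, and the farthest was that of rpl-43. No IDR summit lay inside the body of any large-subunit gene, and the best pooled region there ranked 1154, in rpl-17.

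**Figure D3:**
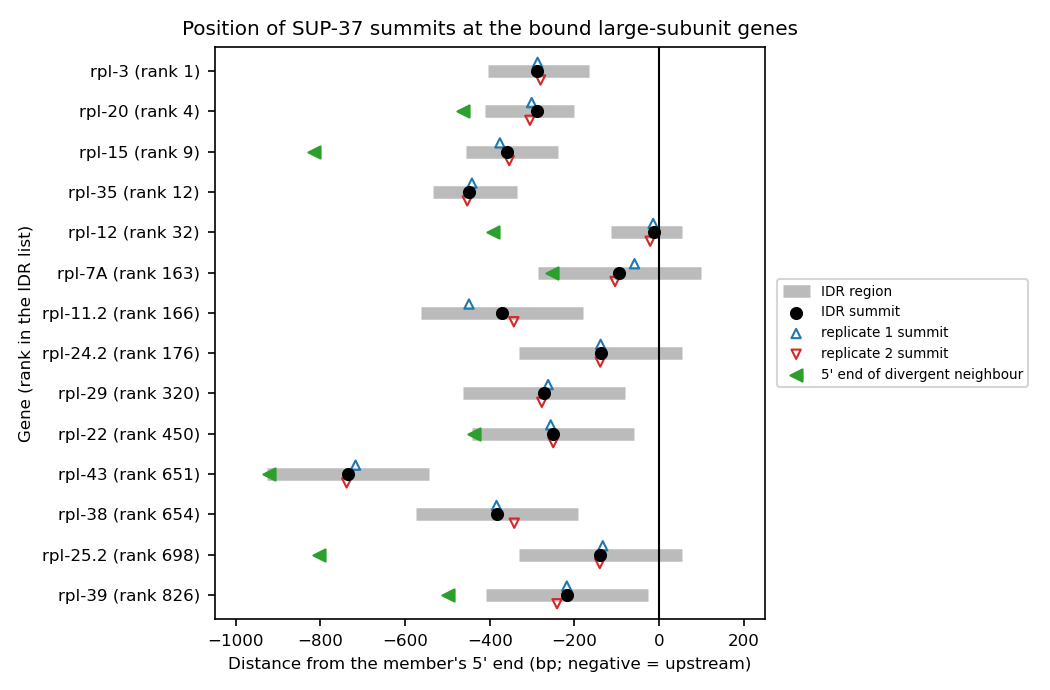
Position of the IDR region (grey bar), its summit (black) and the matching replicate summits (blue and red) at the 14 bound large-subunit genes, in bp from the member's 5′ end, ordered by IDR rank. Green triangles mark the 5′ end of a divergent neighbour within 1000 bp. All summits lie upstream, from 13 bp at rpl-12 to 735 bp at rpl-43, and the replicate summits differ most at rpl-11.2.

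Several of the member summits lay in the window of more than 1 gene. The window of another protein-coding gene also held the summit at 9 of the 14 peaks (64.3%), against 35.5% of the 510 IDR peaks in promoter windows. The units differ, because the member peaks were picked through genes and the 35.5% is counted per peak. A peak in the windows of 2 genes can be picked through either, which raises the share of shared peaks when picking by gene. The 2 shares therefore do not show an excess at the members. At rpl-29 the other gene was thoc-7, on the same strand, whose 5′ end lies beyond the 3′ end of rpl-29, so these 2 genes do not share a promoter. The large-subunit gene had the nearest 5′ end at 11 of the 14. The exceptions were rpl-20, rpl-22 and rpl-43. At the 14 bound genes the upstream neighbour was divergent in 9 cases and on the same strand in 5, with a median gap of 711 bp, and at the 33 unbound genes it was divergent in 22 and on the same strand in 11, with a median gap of 589 bp. A gap of less than 500 bp behind a gene on the same strand, as within operons, was found at 0 bound genes and at 4 unbound ones, rpl-27, rpl-16, rpl-25.1 and rpl-19. The share over all protein-coding genes was not computed, and 0 of 14 is not a firm difference from 4 of 33. Which gene of a shared promoter a peak acts on was not tested.

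rpl-24.2 lies inside another gene, C03D6.1, on the opposite strand, and its summit stood in an intron of that gene. Annotated noncoding RNA genes lay within 200 bp of the summit at 2 of the 14 members (14.3%), rpl-11.2 and rpl-39, against 21.6% of IDR peaks in promoter windows and 29.1% of all IDR peaks. Small noncoding genes also lie inside 9 of the 47 large-subunit genes, 2 of them bound and 7 unbound.

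Paralogue pairs were formed by the number that the gene names share, and their proteins were not compared. In 3 of the 4 pairs 1 gene was bound and the other was not. With 14 of the 47 members bound (29.8%, against 3.44% of all genes), many pairs of members would differ in this way. The 4 pairs therefore do not show that paralogues differ more than other members do. rpl-11.2 had pooled rank 166 and rpl-11.1 pooled rank 15884. The related pair rpl-24.2 and rpl-24.1 had ranks 176 and 1611. RefSeq names rpl-24.2 rsl-24D1, after a relative of the ribosomal protein whose yeast counterpart acts in assembly of the large subunit, and rpl-24.1 simply rpl-24. The rpl-24.2 region (I:9669085-9669468) had signals of 151 in replicate 1 and 108 in replicate 2 and a summit 138 bp upstream. At rpl-24.1 the strongest regions, of signal 60.9 and 56.1, were in different places in the replicates, 78 bp downstream and 270 bp upstream. The pooled region of rpl-24.1 lay between it and the divergent gene rps-10.

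rpl-25.2 had pooled rank 698 and rpl-25.1 pooled rank 9003. The region at rpl-25.2 (I:8329594-8329977), with its summit 139 bp upstream, rested mostly on replicate 2, where it had a signal of 83.3 and rank 389. In replicate 1 the matching region had a signal of 42.7 and rank 7853, and a region of rank 6498 stood 146 bp downstream. rpl-25.1 had no region in replicate 2 and rank 3884 in replicate 1. The neighbours rpl-41.1 and rpl-41.2, which follow each other on the same strand, were both unbound, with pooled ranks of 2425 and 1301. rpl-41.1 ranked 706 in replicate 1 and 12139 in replicate 2, and rpl-41.2 ranked 4250 and 945. The replicates thus ordered that pair in opposite ways.

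The unbound genes ranged from just below the threshold to no region in the window at all. The IDR list ended at a signal of 116.5, and the next pooled region had 116.4. The weakest bound member, rpl-39, had 123. The strongest unbound member, rpl-23, had 114 at rank 972, with rank 390 in replicate 2 and 16516 in replicate 1. After rpl-5 came rpl-27 at pooled rank 1191, rpl-41.2, rpl-24.1, rpl-9, rpl-7 at 1753, rpl-41.1, rpl-16 (rpl-13A in RefSeq) at 2429 and rpl-14 at 2680. Of the 33, 7 had a pooled region within the first 2000, 12 within the first 5000 and 16 within the first 10000, and 6 ranked lower. The 11 others had no pooled summit in the window. Of those, 7 had a region in at least 1 replicate list, and rpl-4, rpl-21, rpl-30 and rpl-42 had none. A pooled summit of any rank was found at 36 of the 47 genes (76.6%), against 35% of all genes, and a summit of any rank at 35 genes (74.5%) in replicate 1, against 33.6%, and at 40 (85.1%) in replicate 2, against 36.7%. These long lists include background regions, so a low rank alone does not show binding.

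Large- and small-subunit genes were reached at similar rates down the pooled list. At the end of the IDR list the shares were 29.8% of large-subunit genes and 38.7% of small-subunit genes (12 of 31, exact 95% interval 21.8 to 57.8%), intervals that overlap widely. A summit among the 25 strongest was found at 4 of 47 large-subunit and 0 of 31 small-subunit genes, against 27 of all 19973 genes. Among the 100 strongest the shares were close, at 10.6% (5 of 47) and 9.68% (3 of 31), against 0.526% of all genes. Counts this small do not show that the 2 groups differ at the top of the list, and this was not tested. The median rank of the bound genes was 171 for the large subunit, 258.5 for the small subunit and 387 for all bound genes. By pooled rank 2000 the shares were 44.7% of large-subunit genes, 45.2% of small-subunit genes and 5.57% of all genes. Of 42 listed names of genes for ribosome assembly and rRNA synthesis, 31 could be matched. Of those 31 genes, 5 were bound (16.1%, exact 95% interval 5.45 to 33.7%), against 3.44% of all protein-coding genes. They were fib-1, which encodes the rRNA methylase fibrillarin, nol-58, rbd-1, tsr-2 and wdr-46, with ranks between 210 and 811. Whether the shares of large- and small-subunit genes differ was not tested.

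**Figure D4:**
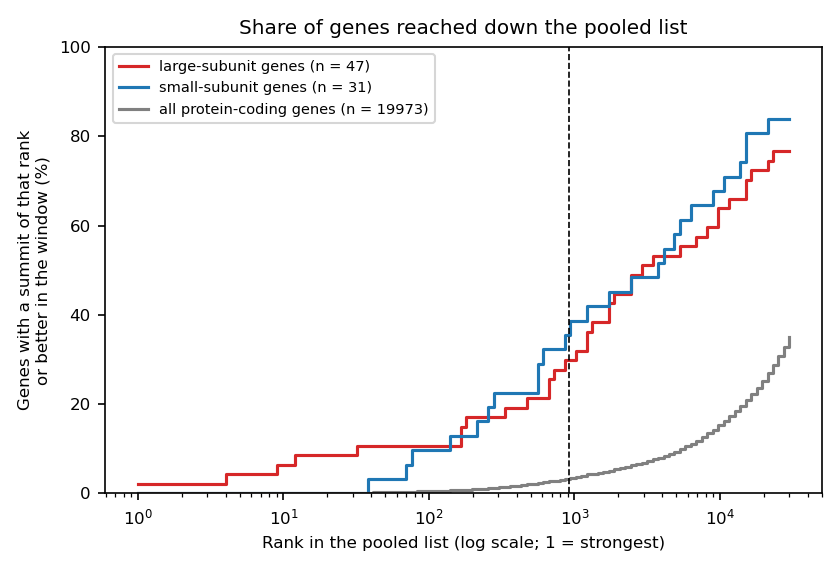
Share of genes (percent) with a summit of a given rank or better in the window, down the pooled list (log scale, 1 = strongest), for 47 large-subunit genes (red), 31 small-subunit genes (blue) and all 19973 protein-coding genes (grey). The dashed line marks rank 924, where the shares are 29.8%, 38.7% and 3.44%. The red line starts first, at rank 1, and the blue line first rises at rank 37.

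In the bound promoters as a group, ACCGTA was present within 50 bp of the summit at 8 of 14 genes (57.1%), against 6.93% of all IDR windows and 2.98% of promoters at the same distance. The 8 were rpl-3, rpl-20, rpl-15, rpl-11.2, rpl-29, rpl-22, rpl-43 and rpl-38. ACACTCG was present at 7 (50%), the first 6 of these and rpl-24.2, against 24 of 924 IDR windows (2.6%) and 0.546% of promoters. Both words were kept because at least 50% of the 14 member windows held them, and the IDR windows include those 14. Their shares at the bound genes were therefore fixed in part by that choice and carry no test. In 500 bp of promoter, ACCGTA was common among large-subunit genes whether bound, at 9 of 14 (64.3%), or unbound, at 16 of 33 (48.5%), against 35.5% of small-subunit and 14% of all genes. ACACTCG was found in 7 of 14 bound promoters (50%) and 5 of 33 unbound ones (15.2%), against 16.1% of small-subunit and 2.63% of all genes. The ACCGTA word was thus spread over large-subunit promoters with and without a peak. No match says only that these letters are not in the window.

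Of 8 further motifs listed apart from that search, several that recur in SUP-37 peaks were not seen within 50 bp of the member summits. The 8 were chosen with earlier results of these data known, so their shares of IDR windows are not a neutral reference. CTGCGTCT was found in 0 of 14 member windows and 103 of the 924 IDR windows (0.896% of promoters), CCGCCC in 0 and 6.17% (2.08%), and the E-box CACGTG in 0 and 5.95% (1.57%). GAGAGA was found in 3 of 14 (21.4%), against 27.6% of IDR windows and 6.06% of promoters. A T run of 6 was found in 3 of 14 (21.4%), against 18% of IDR windows and 45.4% of promoters. GATAAG and GCGCGAA were found in none of the 14, against 1.84% and 2.81% of IDR windows (4.11% and 0.681% of promoters), and TTTCAG in 1 (7.14%), against 6.93% and 18.2%. With 100 bp on either side, CCGCCC and GCGCGAA were each found in 1 of the 14. With 14 windows, an absence from all of them is not a firm difference for words this rare. The G and C content of the member windows had a median of 49.5% (range 42.6 to 59.4%), equal to that of all IDR windows, and the median over promoters at the same distance was 33.7%.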

How the data were processed

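ChIP-seq of tagged SUP-37 was analysed in 2 biological replicates of 1 group, in chromatin sonicated to 200 to 800 bp, per the labels. Regions were called by the authors on each replicate and on the pool, on build ce11. Which aligner, peak caller and IDR cutoff were used is not given in the sources used here. A signal in the deposited lists is a score of the authors' own with no stated scale. The deposited −log10 q-value was capped for most peaks and served no ranking. Control alignments and an untagged strain were not analysed here. Depth is unknown.

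Genes came from Ensembl release 115 (WBcel235). 5′ ends are gene starts. All 47 members matched a RefSeq gene by sequence name, 34 under the same symbol. For each gene the strongest region with a summit in the window was taken from each list. Replicate regions matched a peak when summits lay within 200 bp. No region had the same start and end in both replicate lists. A window was scored for a word on either strand, once. Intervals are exact binomial (Clopper-Pearson, 95%) and cover counting error only. Python 3.11.15, pandas 2.3.3, numpy 2.4.6, scipy 1.17.1 and matplotlib 3.10.9 were used, and the search was tested on simulated data.

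The members, lists and motifs were chosen with earlier results of these data known. Genes named are all bound members, the 10 unbound members of best pooled rank and those with no region in the window in any list. Paralogues, genes placed by role, and neighbours that share a peak are also named. Alternatives tried were other windows, nearest 5′ end only, all transcripts, region overlap, the upper 50% of the IDR peaks by signal, other rank limits, other word windows and each replicate alone.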

Additional observations from a re-analysis of the deposited data

How the results depend on the processing

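The count of 14 bound large-subunit genes ranged from 10 to 16 over 8 alternatives. Taking the nearest 5′ end only gave 11 (2.46% of all genes), without rpl-20, rpl-22 and rpl-43, and the upper 50% of the IDR peaks by signal gave 10 (1.99% of all genes). With replicate 2 alone 16 genes had a summit in its 924 strongest regions (3.57% of all genes), with rpl-23 and rpl-24.1 added. With replicate 1 alone it was 12 (2.94% of all genes), with rpl-41.1 added and rpl-25.2, rpl-38 and rpl-39 lost. The count of 11 genes in both replicates became 18 when the 5000 strongest regions were taken, against 4.87% of all genes. The median summit distance, 280 bp upstream, ranged from -278.5 to -274.5 bp with 1 replicate left out. With 100 bp on either side of the summit the T run was found in 71.4% of member windows, and 15 of 16 motif alternatives stayed within the interval of the main value. No paired analysis was possible because the series has 1 group. The depth of the libraries is unknown and the values rest on 2 libraries.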

Other observations

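The two-part word also lay within 100 bp of IDR summits at 2 small-subunit genes, rps-23 (rank 251), where it read against the direction of the gene, and rps-18 (rank 556). Outside the ribosomal genes, copies stood within 100 bp of the IDR summits of rank 72 at ntl-2, 142 at ndk-1, 307 at eel-1, 457 at trap-2 and ile-2, and 708 at npp-3 and top-2. These genes were named after the copies had been seen.

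At promoters shared by a large- and a small-subunit gene, the strongest pooled region in the window was the same for both genes. The pairs were rpl-39 with rps-30 at pooled rank 826, rpl-24.1 with rps-10 at rank 1611 and rpl-36 with rps-14 at rank 20478. The region at rpl-36 ranked 1060 in replicate 2 and had no counterpart in the replicate 1 list.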
